A study of Mus musculus with 8 samples.

Results

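The genes described here encode the machinery that carries proteins made in the cytosol into mitochondria. They were taken by name: RefSeq symbols beginning Timm or Tomm followed by a digit, together with Hspa9, Grpel1, Grpel2, Dnajc19, Pam16, Samm50, Mtx1, Mtx2, Pmpca, Pmpcb, Oxa1l and Chchd4. Of 39 symbols that fit, 37 had at least 1 of 52 probes on the array, out of 20660 symbols named there, and 36 were bright enough to be tested. The pseudogene Timm29-ps1 and the non-coding Tomm6os had no named probe, and Tomm40l, well above background on 0 P150KD arrays and 1 siControl array, was not tested. RNA came from whole mouse morulae at embryonic day 3.0, the embryo shortly before the blastocyst. In P150KD embryos siRNA against P150 had been injected at the 1-cell stage. P150, the product of Chaf1a, is the largest part of CAF-1, a chaperone that places histones on freshly replicated DNA. In siControl embryos a control siRNA had been injected in the same way. Both groups came from in vitro fertilisation and were grown in KSOM medium; the labels name no mouse strain. There were 5 P150KD arrays and 3 siControl arrays, each with amplified RNA of 10 embryos, and the labels do not say whether the arrays hold separate collections of embryos, so p-values measure only the spread between these samples. An equal mass of amplified RNA was labelled for each array, so every level is relative to the other RNAs of that array.

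Nearly all mitochondrial proteins are encoded in the nucleus and enter the organelle through the TOM complex of the outer membrane. From there, proteins with a cleavable presequence pass through the TIM23 complex and are pulled in by a motor built around mitochondrial Hsp70, carrier proteins are handed by small TIM chaperones to the TIM22 complex, barrel-shaped outer membrane proteins go to the SAM complex, and many small proteins of the intermembrane space are trapped by oxidation. Genes of mitochondrial function are widely known to carry binding sequences for the transcription factors NRF1 and GABPA (an ETS factor) near their starts.

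The promoters of the 4 members whose signal fell, and of Timm8b and Timm8a1, the 1 tested pair of relatives whose difference separated the groups, are shown so that the results can be read beside them. Each is the 250 bases before the RefSeq start (GRCm38.p6), 5′ to 3′ on the strand of the gene, with capitals marking matches on either strand to GCGCA, any base and GCGC (NRF1), CCGGAAG (ETS), CCAAT, AAGATGGCG (YY1), CACGTG (the E-box) or TATAAA; no matches overlap in these 6 windows.
Oxa1l, chr14:54360591-54360840, plus strand: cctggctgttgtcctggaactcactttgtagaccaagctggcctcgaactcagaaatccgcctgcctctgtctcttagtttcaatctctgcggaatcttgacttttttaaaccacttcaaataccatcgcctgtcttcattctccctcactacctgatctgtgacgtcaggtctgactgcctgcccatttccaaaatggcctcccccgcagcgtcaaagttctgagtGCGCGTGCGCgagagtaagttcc
Chchd4, chr6:91473424-91473673, minus strand: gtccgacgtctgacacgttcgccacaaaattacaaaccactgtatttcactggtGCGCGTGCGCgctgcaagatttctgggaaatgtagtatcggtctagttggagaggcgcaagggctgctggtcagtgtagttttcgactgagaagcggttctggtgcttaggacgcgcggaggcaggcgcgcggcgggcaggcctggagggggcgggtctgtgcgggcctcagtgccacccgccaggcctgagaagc
Mtx2, chr2:74825562-74825811, plus strand: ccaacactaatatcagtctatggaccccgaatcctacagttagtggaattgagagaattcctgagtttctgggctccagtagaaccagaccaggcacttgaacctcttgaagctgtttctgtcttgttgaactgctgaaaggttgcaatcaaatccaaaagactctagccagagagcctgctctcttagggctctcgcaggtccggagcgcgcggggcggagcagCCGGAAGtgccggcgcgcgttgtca
Grpel1, chr5:36464935-36465184, plus strand: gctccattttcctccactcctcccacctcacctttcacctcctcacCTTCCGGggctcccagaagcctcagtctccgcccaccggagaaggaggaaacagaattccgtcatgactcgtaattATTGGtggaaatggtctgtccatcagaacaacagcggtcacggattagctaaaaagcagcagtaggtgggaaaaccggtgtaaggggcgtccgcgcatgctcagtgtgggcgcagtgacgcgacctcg
Timm8b, chr9:50603651-50603900, plus strand: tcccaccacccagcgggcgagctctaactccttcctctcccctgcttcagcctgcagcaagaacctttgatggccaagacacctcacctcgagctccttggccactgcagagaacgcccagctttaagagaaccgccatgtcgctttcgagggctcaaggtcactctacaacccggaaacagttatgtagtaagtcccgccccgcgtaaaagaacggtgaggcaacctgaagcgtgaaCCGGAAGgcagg
Timm8a1, chrX:134541671-134541920, minus strand: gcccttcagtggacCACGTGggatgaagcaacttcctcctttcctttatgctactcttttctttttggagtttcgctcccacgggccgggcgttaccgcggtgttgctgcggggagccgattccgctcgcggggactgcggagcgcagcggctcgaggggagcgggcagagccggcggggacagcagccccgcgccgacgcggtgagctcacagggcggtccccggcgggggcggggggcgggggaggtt
Oxa1l and Chchd4 each held 1 match to the NRF1 letters, Mtx2 and Timm8b 1 to the ETS letters, Grpel1 1 to the ETS letters and 1 CCAAT, and Timm8a1 1 E-box. Of 32 tested members with a promoter in the table, 13 (40.6%) had the ETS letters, against 6.91% of all 32851 windows, and 4 (12.5%; Chchd4, Oxa1l, Pam16 and Tomm20) had the NRF1 letters, against 3.74%. The E-box was present for 12.5% of members against 6.02% of all windows, CCAAT for 31.2% against 33.8%, TATAAA for 9.38% against 12.4%, and the YY1 letters for 0 of 32 members against 0.606%. Member windows were richer in CpG, with a median of 14.0 CG pairs against 6.0 in all windows. The NRF1, ETS, E-box and YY1 letters all contain CG. The shares are not of the same unit: a member gene counted if any of its windows matched (34 windows in all), while all windows were counted singly. The set of all windows was also not limited to genes tested here. A match is a description of the letters and not of a factor bound there.

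As a check of the knockdown, Chaf1a read -1.47, 0.52, -0.48, -1.45 and -0.23 on the P150KD arrays, against 2.40, 2.09 and 2.27 on the siControl arrays. Levels here and below are log2 processed signals after subtraction of each array's 75th percentile. Chaf1a RNA was 7.34-fold lower in P150KD (log2 fold change -2.88, SE 0.48, limma adjusted p = 0.0107; -3.72 with adjusted p = 0.0509 when the column of the slide was a block). On each array 50.1% to 55.9% of spots stood well above background and 0 were saturated, and precision is limited by how many arrays there were. Of all tested genes 10.5% fell and 6.65% rose at a limma adjusted p under 0.05, the threshold used for the markers below. All 14 markers of the morula and its lineages were well above background on all 8 arrays, and 5 of them (Gata3, Krt18, Sox2, Tead4 and Utf1) fell. Their summed level was 8.77 to 9.04 in P150KD and 9.43 to 9.53 in siControl. Of 8 leukocyte markers 6 were tested and 3 rose (Cd74, Coro1a and Srgn), while Ptprc and Lyz2 were well above background on 0 arrays. Their summed level was 3.32 to 3.87 in P150KD and 2.35 to 4.06 in siControl. The 4.06 was on siControl replicate 3, where Itgam alone read 3.94. The sum was -2.05 to 0.94 in P150KD and -2.34 to -1.99 in siControl for 7 sperm markers, and 3.01 to 3.99 in P150KD and 2.76 to 2.95 in siControl for 9 cumulus and granulosa cell markers. Of these last, Fshr, Has2, Ptx3 and Tnfaip6 were well above background on 0 arrays. The brightest tested cumulus and granulosa marker, Amhr2, read 3.68, 2.69, 2.96, 3.63 and 3.72 in P150KD, against 2.65, 2.26 and 2.10 in siControl. Its difference of 1.00 (SE 0.31) did not pass (limma adjusted p = 0.0707), and it made up most of that sum. Among red blood cell markers, Hba-a1 rose (log2 fold change 1.24, SE 0.31, limma adjusted p = 0.0375), at -3.12, -3.88, -2.78, -3.17 and -3.17 in P150KD, against -4.62, -4.83 and -3.94 in siControl, and Hbb-bs and Hbb-bt were well above background on 0 arrays. The part of other cells in the results for import genes was not tested, and in whole embryos fewer cells of a type and less RNA per cell cannot be told apart.

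Most of the import machinery did not change past the threshold in P150KD morulae. With the brightest probe of each gene, 4 of 36 tested import genes fell at a limma adjusted p under 0.05, namely Oxa1l, Chchd4, Mtx2 and Grpel1, and 0 rose. At an unadjusted p under 0.05 the counts were 10 fallen and 0 risen, where 22.9% of all genes fell and 12.7% rose. Of all 14601 tested genes 10.5% fell and 6.65% rose (17.1% in either direction), so the 11.1% of import genes that fell is close to the background and is not a result about the import genes as a group. The median log2 fold change of the members was -0.43, beside -0.24 for all genes, and when arrays were scaled to the housekeeping list the 2 medians turned to 0.31 and 0.49, with 0 import genes fallen and 6 risen (2.02% and 22.1% of all genes). That list was itself not level, since 5 of its 13 tested genes fell (Tubb5, Pgk1, B2m, Actb and Gapdh). Fold changes were below 0 for 29 members (80.6%, against 61.3% of all genes). Of the members 34 were above background on all 8 arrays, and the median of all genes that bright was -0.28. The count of falls was 9 with limma's trended and robust variance (14.8% of all genes fell and 8.19% rose), 7 with array weights (15.1% fell and 8.73% rose), 6 with normexp background correction (12.2% fell and 7.1% rose) and 6 of 34 among probes bright on all 8 arrays (18.3% fell and 8.25% rose). It was 3 with quantile normalization (6.48% fell and 7.7% rose), 2 with scaling to the median (6.92% fell and 5.27% rose) and 0 with a block for the slide column (1.39% fell and 1.42% rose), and with each of these the count of rises was 0. On 12 members (33.3%, against 21.8% of all genes) every P150KD array lay below every siControl array, and on 0 members did every P150KD array lie above (10.2% of all genes). Neither these shares nor the share below 0 was counted among bright genes alone.

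**Figure D1:**
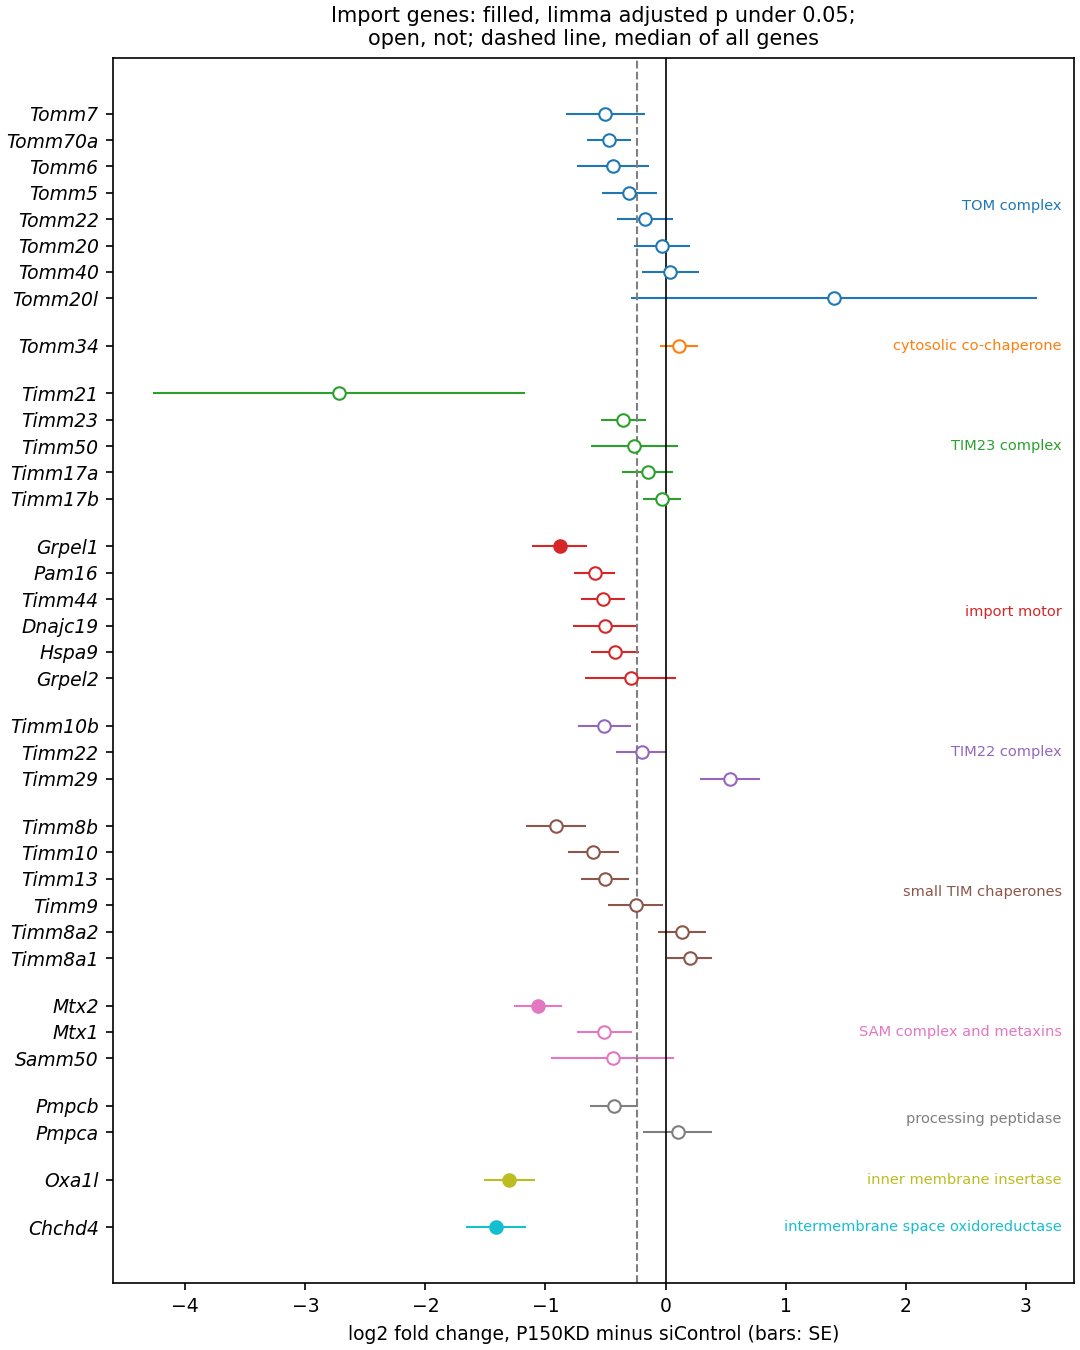
Log2 fold change of P150KD minus siControl for the 36 tested import genes, grouped by role, with the standard error as a bar. Filled points passed a limma adjusted p of 0.05; Oxa1l, Chchd4, Mtx2 and Grpel1 did, at -1.30, -1.41, -1.06 and -0.88, and the dashed line marks the median of all genes at -0.24.

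At the entry gate of the outer membrane 0 of 8 tested TOM genes passed the limma threshold, and 1 (Tomm70a) had an unadjusted p under 0.05. Over all genes 10.5% fell, 6.65% rose and 22.9% fell at an unadjusted p under 0.05, and no test set the TOM genes apart. The median log2 fold change of the TOM genes was -0.24, the same as over all genes. Tomm70a, the receptor for carrier proteins, read 4.35, 4.10, 4.23, 3.95 and 4.24 on the P150KD arrays, against 4.58, 4.88 and 4.49 on the siControl arrays. The groups did not overlap, yet the difference of -0.47 (SE 0.18) did not pass (adjusted p = 0.119). Tomm40, the pore itself, read 5.39, 5.10, 5.01, 5.68 and 5.73 in P150KD, against 5.44, 5.54 and 5.06 in siControl. The ranges lay over each other, with a difference of 0.04 whose 95% interval ran from -0.53 to 0.60. Tomm20, the receptor of presequences, read 7.32, 7.47, 7.24, 6.73 and 6.71 in P150KD, against 7.08, 7.17 and 7.11 in siControl. Replicates 1 to 3 were above all siControl arrays and replicates 4 and 5 below them, so that the mean difference of -0.03 (95% interval -0.57 to 0.52) averages values on both sides. Tomm22, the central receptor that joins the subunits, was split in much the same way, at 6.67, 6.63, 6.58, 5.88 and 6.14 in P150KD, against 6.49, 6.59 and 6.58 in siControl (difference -0.17, 95% interval -0.72 to 0.37). The small subunits Tomm5, Tomm6 and Tomm7, which help the complex assemble, had differences of -0.30, -0.44 and -0.50, none past the threshold. Tomm20l, a relative of Tomm20, read -1.58, -0.09, -0.78, -3.96 and -0.85 in P150KD, against 0.06, -1.26 and -7.36 in siControl. Its spread was too wide for a direction (1.40, 95% interval -2.55 to 5.35), and without siControl replicate 3, the lowest array, the difference was -0.85. Tomm34, a cytosolic co-chaperone that brings precursors to the organelle, differed by 0.11 (SE 0.16).

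In the TIM23 complex, the channel for presequence proteins, 0 of 5 tested genes passed the limma threshold and 0 had an unadjusted p under 0.05. Over all genes 10.5% fell, 6.65% rose and 22.9% fell at an unadjusted p under 0.05, and no test set these 5 genes apart. Timm23, which forms the channel, read 8.52, 8.50, 8.38, 8.21 and 8.03 in P150KD, against 8.60, 8.52 and 8.91 in siControl (difference -0.35, SE 0.19, adjusted p = 0.267). The groups overlapped slightly, at the top of the P150KD range. Timm17a, its partner, read 7.55, 7.50, 7.37, 6.98 and 6.92 in P150KD, against 7.38, 7.31 and 7.54 in siControl. Timm17b, the second form of that partner, was level across the knockdown arrays at 5.03, 4.98, 4.99, 4.99 and 5.00, against 5.13, 5.20 and 4.75 in siControl. The differences of Timm17a and Timm17b were -0.15 (95% interval -0.64 to 0.35) and -0.03 (95% interval -0.41 to 0.36). Timm50, the presequence receptor on the inner membrane, differed by -0.26 (SE 0.36). Timm21, which links the complex to the outer membrane, was dim and read -0.61, 0.52, -6.83, -1.97 and -1.10 in P150KD, against 0.81, -0.06 and 1.41 in siControl. It was well above background on 7 of the 8 arrays, and its difference of -2.72 had a 95% interval from -6.32 to 0.89.

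All 6 genes of the import motor had lower mean signals in P150KD, 1 of them (Grpel1) fell by the limma test, 3 had an unadjusted p under 0.05, and 0 rose. Over all genes 61.3% had lower means, 10.5% fell and 22.9% fell at an unadjusted p under 0.05, and no test set the motor apart from them. Grpel1, the nucleotide exchange factor that resets mitochondrial Hsp70, read 6.43, 6.41, 6.56, 5.75 and 5.96 on the P150KD arrays, against 7.15, 7.03 and 7.11 on the siControl arrays. Every P150KD array was lower, replicates 4 and 5 most of all, and the level was 1.84-fold lower (a log2 difference of -0.88, SE 0.23, limma adjusted p = 0.0451). This call is the least firm of the 4: it was lost when any 1 of the 8 arrays was left out (adjusted p from 0.0513 to 0.134), and a second probe of Grpel1, near the bottom of the scale at -3.48 in P150KD and -3.43 in siControl, differed by -0.05. Pam16, a J-like regulator of the motor, read 6.18, 5.95, 6.15, 6.04 and 5.88 in P150KD, against 6.71, 6.43 and 6.76 in siControl. Its groups did not overlap, and the difference of -0.59 (SE 0.17) lay just outside the threshold (adjusted p = 0.055); the second probe differed by -0.50 (SE 0.17). Timm44, which anchors the motor to the channel, read 4.98, 5.33, 5.37, 5.60 and 5.33 in P150KD, against 5.75, 5.88 and 5.91 in siControl (difference -0.52, SE 0.18, adjusted p = 0.101). Again no array of one group reached the other. Hspa9, mitochondrial Hsp70 itself, differed by -0.42 (SE 0.20) and Dnajc19, its J-protein partner, by -0.50 (SE 0.27), with overlapping groups. Grpel2, the second exchange factor, read -1.60, -0.25, -0.78, -1.08 and -0.83 in P150KD, against -0.09, -0.43 and -1.35 in siControl (difference -0.29, 95% interval -1.18 to 0.61).

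In the carrier route 0 of 3 tested TIM22 genes and 0 of 6 small TIM chaperone genes passed the limma threshold (10.5% of all genes fell and 6.65% rose). At an unadjusted p under 0.05 there were 0 and 3 (22.9% of all genes fell by that measure). Timm22, the carrier channel, read 5.09, 4.77, 4.75, 4.56 and 4.60 in P150KD, against 5.22, 5.02 and 4.60 in siControl (difference -0.20, 95% interval -0.69 to 0.30). Timm10b, the chaperone bound to that channel, read 2.94, 3.21, 2.57, 3.03 and 3.17 in P150KD, against 3.82, 3.39 and 3.27 in siControl. Its groups were apart by little, with a difference of -0.51 (SE 0.22, adjusted p = 0.17). Timm29, known as a subunit of the human TIM22 complex, was the member with the largest positive difference among those above background on all arrays, at 0.54 (95% interval -0.03 to 1.11). Timm8b, which works with Timm13, read 3.96, 4.25, 3.91, 3.26 and 3.69 in P150KD, against 4.68, 4.58 and 4.92 in siControl. All 5 knockdown arrays were lower, and the difference of -0.91 (SE 0.25) missed the threshold narrowly (adjusted p = 0.0503). With 1 array left out the limma adjusted p ran from 0.0394 to 0.145, and Timm8b passed only without P150KD replicate 2. With all arrays kept it passed with normexp, probes above background on all 8 arrays, trended and robust eBayes, and array weights (limma adjusted p from 0.0234 to 0.0343). It did not pass with the other alternatives (limma adjusted p from 0.0503 to 0.59). Timm13 read 5.11, 4.84, 5.08, 4.63 and 5.13 in P150KD, against 5.73, 5.34 and 5.31 in siControl (difference -0.50, SE 0.20, adjusted p = 0.136). Timm10 read 5.95, 5.98, 5.70, 5.45 and 5.35 in P150KD, against 6.42, 6.32 and 6.13 in siControl (difference -0.60, SE 0.21, adjusted p = 0.1). Both were lower on every knockdown array than on any control array. Timm9, which forms a ring with Timm10, read 2.98, 2.65, 2.72, 2.20 and 2.44 in P150KD, against 2.81, 3.12 and 2.60 in siControl, with overlapping groups (difference -0.25, 95% interval -0.78 to 0.29). The Tim8 relatives Timm8a1 and Timm8a2 were on the other side of 0. Timm8a1 read 7.69, 7.42, 7.54, 7.25 and 7.04 in P150KD, against 7.10, 7.28 and 7.19 in siControl (difference 0.20, 95% interval -0.25 to 0.65), and Timm8a2 differed by 0.14 (SE 0.20).

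**Figure D2:**
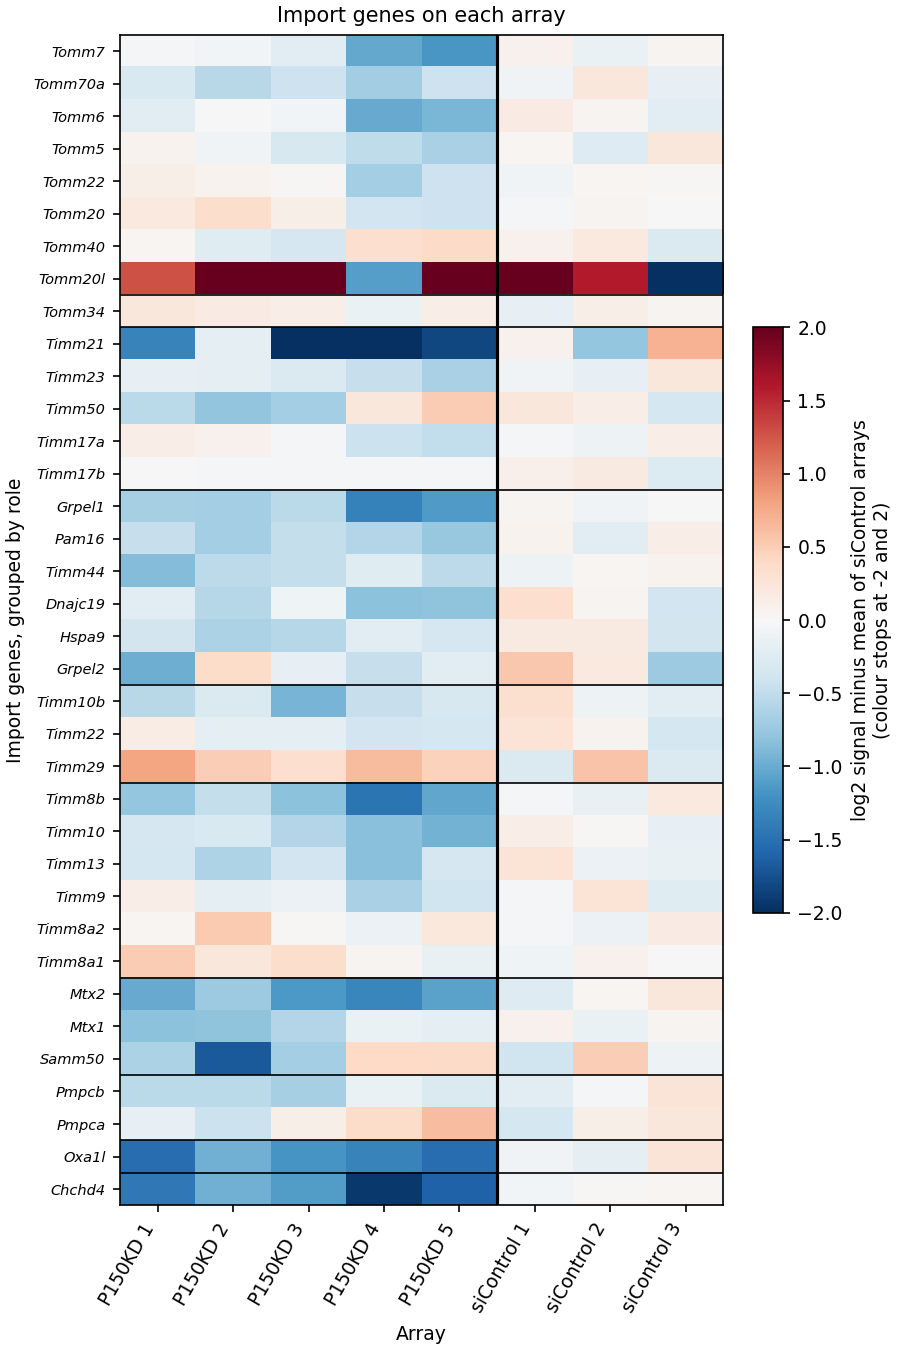
Each row is a tested import gene and each column an array; colour gives the log2 signal minus the mean of the 3 siControl arrays, with the colour stopped at -2 and 2. Oxa1l, Chchd4, Mtx2 and Grpel1 are lower on all 5 P150KD arrays, and in the TOM rows Tomm5, Tomm6, Tomm7, Tomm20 and Tomm22 are lowest on P150KD replicates 4 and 5.

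Beyond the translocases stood the other 3 genes that fell. Chchd4, the oxidoreductase that folds small proteins of the intermembrane space by adding disulfide bonds, read 3.76, 4.22, 4.07, 3.26 and 3.57 on the P150KD arrays, against 5.13, 5.20 and 5.22 on the siControl arrays. The control arrays were nearly equal and all knockdown arrays lay well below them, which makes 2.65-fold lower (a log2 difference of -1.41, SE 0.25, limma adjusted p = 0.0131). Leaving out siControl replicate 1 brought its adjusted p to 0.05, just outside the threshold. Oxa1l, the insertase that places proteins made inside mitochondria into the inner membrane, read 3.44, 4.0, 3.77, 3.62 and 3.44 in P150KD, against 4.89, 4.76 and 5.22 in siControl. The gap between the groups was wider than the range within either, and the level was 2.47-fold lower (a log2 difference of -1.30, SE 0.21, limma adjusted p = 0.00933). It was the 1 member of the 4 whose call held when each array was left out in turn (adjusted p from 0.0117 to 0.0376). Mtx2, a metaxin that works beside the SAM complex, read 4.23, 4.51, 4.09, 3.94 and 4.18 in P150KD, against 4.98, 5.28 and 5.47 in siControl. It was 2.08-fold lower (a log2 difference of -1.06, SE 0.20, limma adjusted p = 0.0159), with adjusted p of 0.0559 without siControl replicate 2 and 0.054 without siControl replicate 3. Its partner Mtx1 read 3.10, 3.12, 3.33, 3.78 and 3.74 in P150KD, against 4.0, 3.79 and 3.97 in siControl. Those groups nearly met without overlapping, with a difference of -0.51 (SE 0.23, adjusted p = 0.176). Samm50, the barrel at the core of the SAM complex, read 0.57, -0.48, 0.52, 1.59 and 1.58 in P150KD, against 0.80, 1.69 and 1.10 in siControl (difference -0.44, 95% interval -1.63 to 0.75). Its knockdown arrays ran on both sides of the control range's lower end.

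The processing peptidase removes presequences once proteins have entered. Pmpcb, its catalytic subunit, read 5.52, 5.52, 5.40, 5.92 and 5.76 in P150KD, against 5.83, 6.02 and 6.32 in siControl (difference -0.43, SE 0.20, adjusted p = 0.191). Pmpca, the other subunit, read 4.20, 3.93, 4.49, 4.73 and 4.98 in P150KD, against 4.02, 4.49 and 4.59 in siControl (difference 0.10, 95% interval -0.57 to 0.76). Both pairs of groups overlapped.

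**Figure D3:**
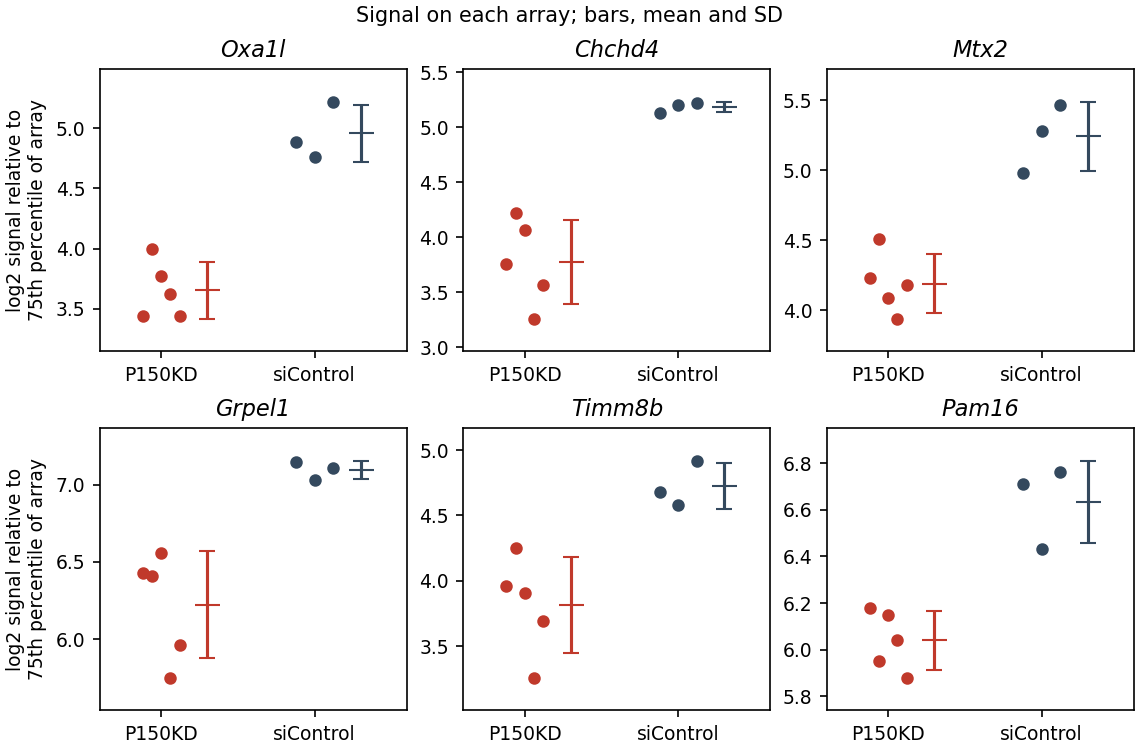
Log2 signal minus the array's 75th percentile (vertical axis) for Oxa1l, Chchd4, Mtx2, Grpel1, Timm8b and Pam16, with 1 point per array and the mean and SD beside the points. In each panel the 5 P150KD arrays lie below the 3 siControl arrays; the last 2 genes had adjusted p of 0.0503 and 0.055.

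Whether partners and paralogues changed unequally was tested on the difference of their signals within each array, for 11 pairs, with a two-sided exact permutation test of the 5 against 3 arrays whose smallest possible p is 0.0179. Adjusted over the 11 pairs that smallest p becomes 0.196, so a single pair could not pass. Timm8a1 and Timm8b had the smallest p, with a difference of fold changes of 1.11, no overlap between the groups, and p = 0.0179 in the exact permutation test. For Pmpca minus Pmpcb the difference of fold changes was 0.53 and for Timm9 minus Timm10 0.36, each with an exact permutation p of 0.0714 (0.262 adjusted). Mtx1 minus Mtx2 came to 0.54 (exact permutation p = 0.161) and Grpel1 minus Grpel2 to -0.59 (exact permutation p = 0.25). The widest difference, -1.43 for Tomm20 minus Tomm20l, came with the wide spread of Tomm20l. For the other 6 pairs, this one included, the exact permutation p was 0.143 for Tomm20 and Tomm22, 0.286 for Tomm40 and Samm50, and from 0.607 to 0.696 for Timm17a and Timm17b, Tomm20 and Tomm20l, Timm10 and Timm10b, and Timm23 and Timm22. With this design the change of Mtx2 could not be shown to differ from that of Mtx1, nor that of Grpel1 from that of Grpel2.

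For 15 members a second probe was tested, and in 10 of them both probes had fold changes of the same sign. The second Oxa1l probe, much dimmer at -1.08 in P150KD and 0.05 in siControl, differed by -1.13 (SE 0.48, adjusted p = 0.157), close to the -1.30 of the first. The second probes of Timm10 and Timm10b differed by -0.51 and -0.93, with the groups apart for both. Of the second probes 1 passed: the dimmer Timm8a1 probe was higher in P150KD, at 3.18 against 2.31 in siControl (log2 fold change 0.86, SE 0.21, limma adjusted p = 0.0342), while the brighter probe differed by 0.20 and did not pass. Signs were opposite for Dnajc19, Timm50, Tomm5, Tomm7 and Tomm20, none of which passed with either probe. Across every probe tested on the arrays 13.9% passed in either direction, so 1 passing probe among these 15 does not stand out. How often 2 probes of a gene share a sign over all genes is not given here, so the 10 of 15 has no background to be read against.

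**Figure D4:**
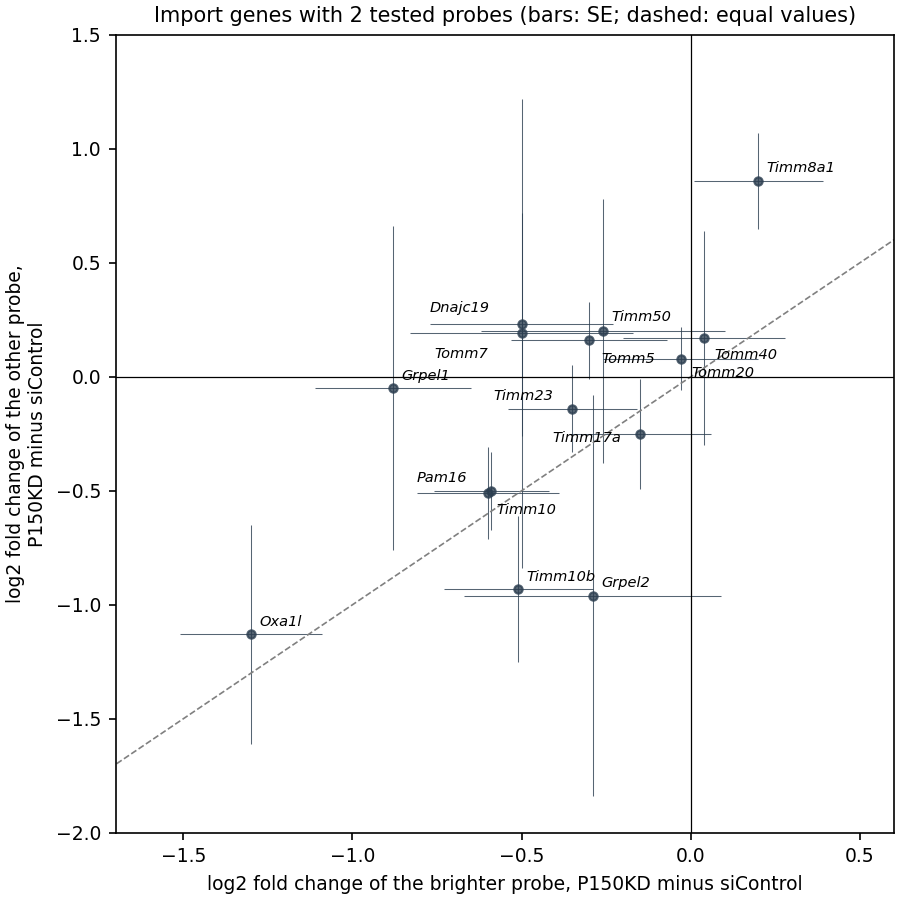
Log2 fold change of P150KD minus siControl by the brighter probe (horizontal axis) and the other probe (vertical axis) for the 15 import genes with 2 tested probes, with standard errors as bars. Oxa1l, Pam16 and Timm10 lie near the line of equal values, Grpel1 has -0.88 and -0.05, and Timm8a1 has 0.20 and 0.86.

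The knockdown arrays were not alike for all import genes. P150KD replicates 4 and 5 were the lowest arrays of the 5 for 15 members (41.7%), against 16.6% of all genes. Those 15 were Chchd4, Dnajc19, Grpel1, Timm8a1, Timm8b, Timm9, Timm10, Timm17a, Timm22, Timm23, Tomm5, Tomm6, Tomm7, Tomm20 and Tomm22. The same replicates were the highest of the 5 for 7 members (19.4%, against 18.1% of all genes), namely Hspa9, Mtx1, Pmpca, Pmpcb, Samm50, Timm50 and Tomm40. These replicates were singled out after their values were seen, and no test was made of the pattern. Taking each knockdown array against the siControl mean, the median over members was -0.26, -0.26, -0.33, -0.46 and -0.40 for replicates 1 to 5, and the median over all genes was -0.19, -0.28, -0.24, -0.20 and -0.14. On the slide, 1 column held the 3 siControl arrays and P150KD replicate 1, and the other held P150KD replicates 2 to 5. Within the first column, P150KD replicate 1 lay below the siControl mean by -1.51 for Oxa1l, -1.42 for Chchd4, -1.02 for Mtx2 and -0.67 for Grpel1, beside -1.25, -1.40, -1.06 and -0.93 for the mean of replicates 2 to 5. With the column as a block the differences of Oxa1l, Chchd4, Mtx2 and Grpel1 rested on that 1 knockdown array and did not pass (limma adjusted p = 0.0809, 0.149, 0.186 and 0.426).

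Other genes of the pathway and of the organelle were counted in the same fit. Over all tested genes 10.5% fell and 6.65% rose. At an unadjusted p under 0.05 these shares were 22.9% and 12.7%. Of 25 tested genes for further import, folding and quality control steps, 2 fell (8%), 0 rose, 9 had an unadjusted p under 0.05, all of them lower, and the median was -0.31. The 2 were Pitrm1, which degrades cut presequences (log2 fold change -1.04, SE 0.24, limma adjusted p = 0.0287), and Mtch2, an insertase of the outer membrane (-0.83, SE 0.22, limma adjusted p = 0.0456). Of 9 genes for the MICOS complex and cristae, the folds of the inner membrane, 4 fell (44.4%) and 0 rose, with 7 lower and 0 higher at an unadjusted p under 0.05 and a median of -0.88. They were the core subunit gene Immt (-1.05, SE 0.20), Apool (-1.08, SE 0.26), Micos13 (-0.94, SE 0.24) and the fusion GTPase gene Opa1 (-0.88, SE 0.23). Each count was 0 without any 1 siControl array, with the same tool. Of all genes 3.19%, 4.4% and 4.55% fell without siControl replicate 1, 2 and 3. In the mitochondrial ribosome 30 of 77 tested genes fell (39%) and 0 rose, with 53 lower and 1 higher at an unadjusted p under 0.05 and a median of -0.78. Mrpl23 (-1.31, SE 0.17), Mrps16 (-1.22, SE 0.18) and Mrpl11 (-1.06, SE 0.17) had the smallest p there. That count was 4, 12 and 11 without siControl replicate 1, 2 and 3, where 3.19%, 4.4% and 4.55% of all genes fell. Of 12 tested regulators of mitochondrial biogenesis, among them Nrf1, Gabpa and Tfam, 0 passed in limma, with 2 lower and 1 higher at an unadjusted p under 0.05 and a median of 0.03. With scaling to the housekeeping list 2.02% of all genes fell and 22.1% rose. The falls were then 0 in the further import genes, 0 in the MICOS genes and 1 in the ribosome genes. The rises were 4 of 25 further import genes, 0 of 9 MICOS genes, 4 of 77 ribosome genes and 6 of 12 biogenesis regulators. With a block for the slide column 0 genes of these lists fell or rose (1.39% and 1.42% of all genes). These counts are descriptions, and whether the import genes differ from the ribosome or MICOS genes was not tested.

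**Figure D5:**
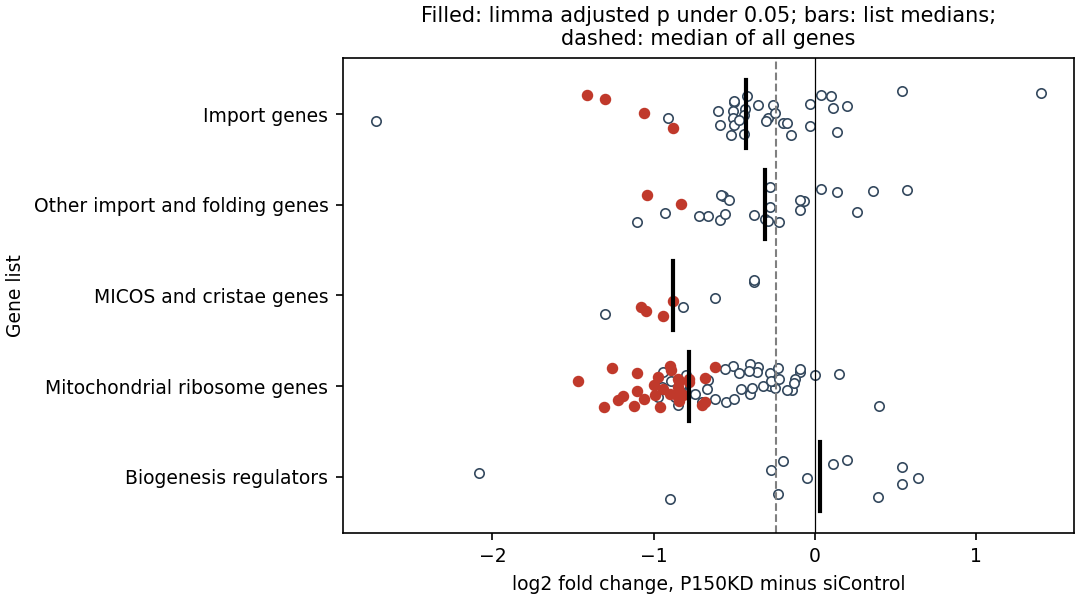
Log2 fold change of P150KD minus siControl for each tested gene of 5 lists, with filled points at a limma adjusted p under 0.05, bars at the list medians and the dashed line at the median of all genes, -0.24. The medians are -0.43 for import genes, -0.31 for other import and folding genes, -0.88 for MICOS and cristae genes, -0.78 for mitochondrial ribosome genes and 0.03 for biogenesis regulators.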

How the data were processed

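Gene expression was measured on 8 one-colour Agilent arrays of 1 slide with 1 scan date. Per the submitters' processing notes and the file headers, the authors extracted the images in Agilent Feature Extraction 10.5.1. Its processed signal is an intensity from which, per the file headers, local background and a spatial trend had been removed, with no normalization across arrays. The deposited series table holds log2 values; compared with the scanner signals, they are the same quantity after subtraction of the 75th percentile of the array and of the median of the probe. Its column medians ran from -0.215 to 0.091. The deposited flag columns hold 0 or 1.

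Spots of 1 probe were averaged on the log2 scale, without outlying spots where another remained, and the 75th percentile over probes (819 to 1304 in processed signal) was subtracted. Probes well above background on at least 3 of 8 arrays were tested (30348 of 55681). Probes were named through the RefSeq gene table (GRCm38.p6); 27235 received a symbol. P150KD and siControl were compared with limma 3.58.1 in R 4.3.3 (lmFit, eBayes, two-sided), p-values adjusted by Benjamini-Hochberg across every tested probe, a threshold of 0.05, and the brightest tested probe stood for its gene. Of the probes tested 4231 (13.9%) changed. The fit was tested on simulated data with planted changes larger than those of the import genes that passed. Changes of the size seen in those genes were not simulated.

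The members and lists were chosen with earlier results of these data known. The summed level of the red blood cell markers is not reported here. By rule, values on every array were given for the members past the threshold, the 6 with the next smallest p and the members of the tested pairs. Chaf1a and up to 8 called genes of each other list were also named. The remaining tested members were given by their differences, and Timm21, outside this rule, also on every array. Replicate numbers are shared by the groups, but deviations of same-numbered arrays correlated at -0.01, -0.07 and -0.02, so they were not taken as pairs. Alternatives were normexp background correction (offset 50) on the median signals, quantile normalization, scaling to the median or to the housekeeping list, the series table, the filter on dim probes, a block for the replicate number or for the slide column, a trended and robust eBayes, array weights, the mean of a gene's probes, and leaving out each array.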

Additional observations from a re-analysis of the deposited data

Results flagged for a closer look

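Each of the 36 tested import genes and Chaf1a was examined for a P150KD array far from the other 4. Tomm34 was the 1 gene of these 37 in which the gap to the nearest array, 0.761 of the group's range, was above Dixon's critical value of 0.71. Its P150KD replicate 4 read 3.0, while the other P150KD arrays read 3.27 to 3.36 and the siControl arrays 2.97, 3.24 and 3.18. Chance flags about 1 in 20 groups by this measure, so 1 of 37 is no more than chance gives.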

How the results depend on the processing

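Counts for import genes refer to falls and rises at a limma adjusted p under 0.05. The share of all genes that fell stands in brackets. The deposited series table gave 4 falls (10.5%), normexp 6 (12.2%), quantile normalization 3 (6.48%), probes above background on all 8 arrays 6 (18.3%) and no filter on dim probes 3 (5.13%). Scaling to the median gave 2 (6.92%), eBayes with trend and robust 9 (14.8%), array weights 7 (15.1%) and the mean of a gene's probes 3 (9.77%). With scaling to the housekeeping list 0 fell (2.02%) and 6 rose (Timm8a1, Timm8a2, Timm17b, Timm29, Tomm20 and Tomm34), where 22.1% of all genes rose. At an unadjusted p under 0.05 that scaling gave 2 lower and 11 higher (4.46% and 34.7% of all genes). The replicate block and the slide column as a block each gave 0 calls (0% and 1.39%), with 5 and 4 falls at an unadjusted p under 0.05 (16% and 13%). Leaving out 1 array gave 2 to 4 falls (3.19% to 9.01%), the lowest share without siControl replicate 1. Over all probes 4231 were called, 6817 with housekeeping scaling (93.6% risen, in place of 45.1%), 0 with the replicate block (6371 at an unadjusted p under 0.05), 713 with the slide column as a block, and 1706 to 3749 with 1 array left out. Quantile normalization called 3558, 58.3% of them risen. With the replicate block each same-numbered pair is compared, although no P150KD array deviated most like its own number's siControl array.

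The members' median of -0.43 was -0.33 with normexp and also when a gene's probes were averaged, -0.22 with quantile normalization, 0.31 with housekeeping scaling, -0.27 with the replicate block, -0.26 with the slide column as a block, and -0.49 to -0.34 with 1 array left out. The median of all genes, -0.24, was -0.12 with quantile normalization, -0.30 with scaling to the median, 0.49 with housekeeping scaling and -0.10 with no filter. The difference between the 2 medians, -0.19, was -0.33 with no filter and -0.0325 with the replicate block, and -0.24 to -0.10 with 1 array left out.

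Oxa1l, Chchd4, Mtx2 and Grpel1 were lower in P150KD under all 20 alternatives and passed under 17, 16, 14 and 5 of them. Members without a call changed sign as follows. With housekeeping scaling, which adds 1 constant to every fold change, these were Dnajc19 (0.23), Grpel2 (0.45), Hspa9 (0.31), Mtx1 (0.22), Pam16 (0.14), Pmpcb (0.30), Samm50 (0.29), Timm9 (0.49), Timm10 (0.13), Timm10b (0.23), Timm13 (0.23), Timm17a (0.59), Timm17b (0.71), Timm22 (0.54), Timm23 (0.39), Timm44 (0.21), Timm50 (0.47), Tomm5 (0.44), Tomm6 (0.29), Tomm7 (0.23), Tomm20 (0.71), Tomm22 (0.56) and Tomm70a (0.26). With quantile normalization they were Timm17a (0.054), Timm17b (0.22), Timm22 (0.047), Tomm20 (0.20) and Tomm22 (0.062). With the replicate block they were Pmpca (-0.16), Timm17a (0.062), Tomm20 (0.23), Tomm22 (0.073) and Tomm40 (-0.18). With the slide column as a block they were Pmpca (-0.17), Timm9 (0.14), Timm17a (0.14), Timm17b (0.0021), Timm22 (0.14), Tomm5 (0.065), Tomm20 (0.20) and Tomm22 (0.11). Tomm40 was -0.027 with scaling to the median and -0.066 with array weights, Tomm20l -0.21 with array weights, and Tomm20 0.026 with the mean of a gene's probes. With 1 array left out the values that crossed 0 were Pmpca (-0.075 to 0.23), Timm17b (-0.16 to 0.061), Tomm20 (-0.12 to 0.07), Tomm20l (-0.85 to 2.85), Tomm40 (-0.11 to 0.13) and the differences of fold changes Timm17a minus Timm17b (-0.26 to 0.079), Tomm20 minus Tomm20l (-2.9 to 0.82), Timm10 minus Timm10b (-0.20 to 0.035) and Timm23 minus Timm22 (-0.33 to 0.14). For these sign changes the cause was not tested.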
